A study of Mus musculus with 12 samples.

Results

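Nr5a1, Fezf1, Sox14, Adcyap1, Nkx2-1, Tbx3, Isl1 and Ghrh are genes used to recognise neurons of the ventromedial nucleus (the first 4) and of the arcuate nucleus and the ventral hypothalamus around it (the last 4). They were picked by symbol, as 8 of the 32494 genes in the deposited expression table, and each was described in every mouse. Of the 8, 7 reached a mean of 1 CPM (a gene's reads for every 1 M, or megaread, of the library) over all libraries, among 15359 genes that did. Sox14 stayed under that level and was not among the 15359 tested genes.

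Messenger RNA had been sequenced from the hypothalamus of 12 male mice, all with floxed Smc3 and all given tamoxifen, 5 weeks after the tamoxifen. The 7 mice of the WT group were Camk2a-cre/ERT2- and the 5 of the cKO group Camk2a-cre/ERT2+, while the word control stands in every title of both groups and was not used. The Camk2a promoter drives the tamoxifen-dependent recombinase in forebrain excitatory neurons, so the deletion is not aimed at inhibitory neurons or glia. The age of the mice is given as 8 weeks in the growth protocol, with no step named, and the labels give no batch. The study asked how adult loss of Smc3 from forebrain neurons acts on hypothalamic gene expression, with Mc4r, the melanocortin 4 receptor, named in its title.

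The ventromedial nucleus is a group of largely glutamatergic neurons that takes part in energy balance, glucose control and social behaviour. Nr5a1, which encodes the nuclear receptor SF-1, is needed for it to form. The arcuate nucleus holds the neurons that sense leptin and the neurons that release growth hormone-releasing hormone toward the pituitary. Nkx2-1, Isl1 and Tbx3 act in the development and the upkeep of neurons there. In whole tissue, fewer cells of a type and less RNA per cell cannot be told apart.

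Sequencing depth lay between 17.1 and 24.0 M reads, except for WT 1 with 68.7 M, and 3 reads corresponded to 0.0436 to 0.178 CPM. Smc3, the floxed gene, went against the labels, with 81.6 ± 3.14 CPM (SD, n = 7) in WT and 131 ± 10.3 CPM (SD, n = 5) in cKO. The floxed part of the gene is not given in the sources used here, so groups are called by their labels and every direction given is between libraries labelled WT and libraries labelled cKO. Mc4r was at 3.12 ± 0.813 CPM in WT and 1.89 ± 0.328 CPM in cKO (limma adjusted p = 0.0296).

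The libraries differed in their levels of region markers, in both groups, and the cause was not tested. WT 4, WT 5, cKO 12 and cKO 13 had 0.280 to 2.33 CPM of Oxt, the oxytocin gene of the paraventricular and supraoptic nuclei, and the other 8 libraries had 69.5 to 348 CPM. The same 4 libraries had 52.6 to 132 CPM of Slc6a3, the dopamine transporter, against 0.826 to 1.78 CPM in 7 of the other 8, with WT 1 at 102 CPM. En1, a midbrain transcription factor, followed Slc6a3, at 4.51 to 9.09 CPM in these 5 libraries and at most 0.248 CPM in the remaining 7. Mbp, an oligodendrocyte marker, was at 3689 to 4334 CPM in the 4 libraries of low Oxt and at 1734 to 3025 CPM in the other 8. This split was seen in the values and is not a label, so results that rest on these libraries are given with and without the 4 of low Oxt.

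**Figure D1:**
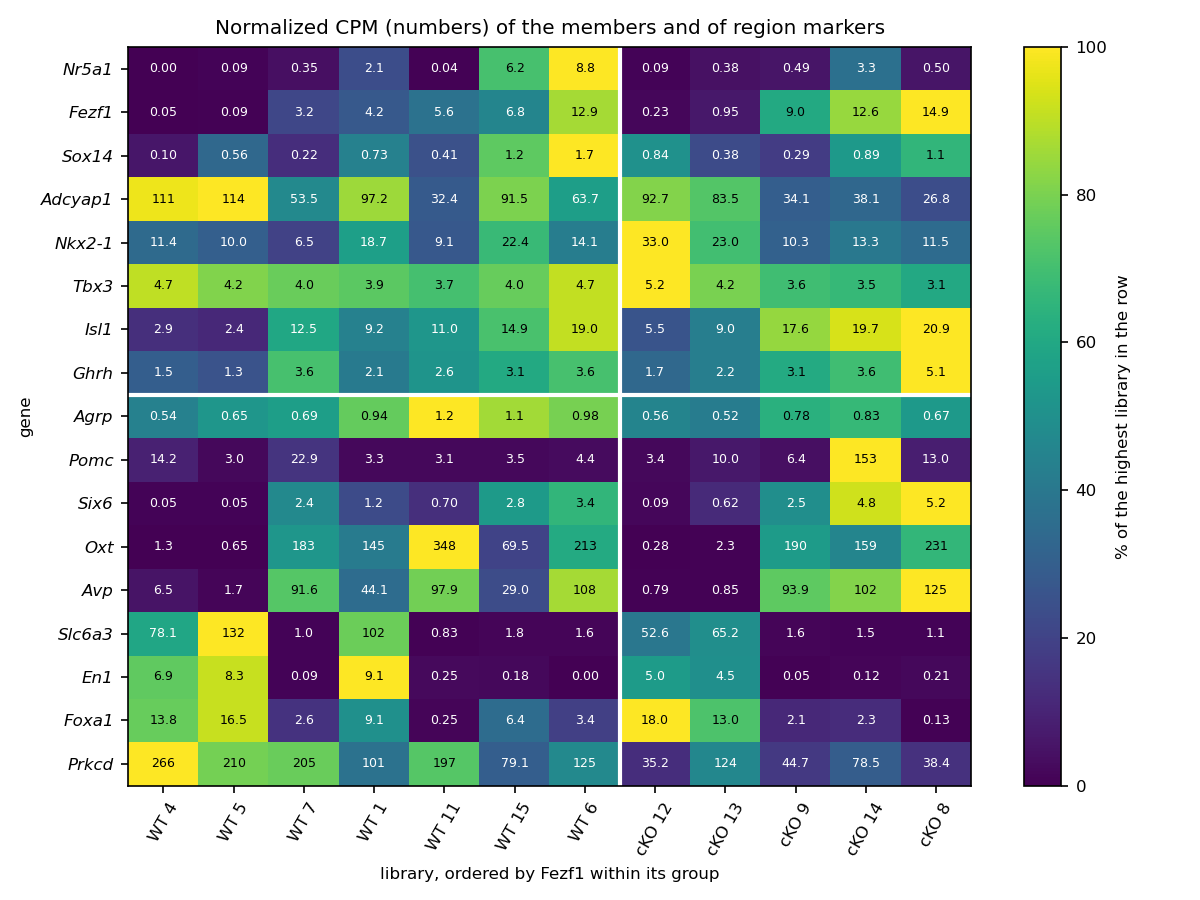
Normalized CPM (numbers) of the 8 members (above the white line) and of marker genes of neighbouring cell groups (below it) in each library, ordered by Fezf1 within its group, with colour giving the percent of the highest library in that row. WT 4, WT 5, cKO 12 and cKO 13 combine Fezf1 under 1 CPM with low Oxt, Avp and Six6 and with high Slc6a3.

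None of the 7 tested members passed the threshold between groups. limma called 0 of 7 at an adjusted p under 0.05, against 14.1% of all 15359 tested genes, and 0 of 7 had an unadjusted p under 0.05, against 31.1%. On whole reads recovered from the CPM values, edgeR's quasi-likelihood test and DESeq2 also called 0 of 7. The ranges of both groups overlapped for each of the 7, while they did not overlap for 6.73% of all tested genes. The median log2 fold change (cKO minus WT, on the log2(CPM + 1) scale) was 0.21 over the 7 and 0.01 over all tested genes, with 4 members above 0 and 3 below. In the authors' deposited table the FDR of the 8 members was between 0.456 and 1.

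Of the 7 tested members, 6 differed far more from mouse to mouse than most genes. By the residual SD of log2(CPM + 1) around the group means, Fezf1 ranked 14 among the 15359 tested genes (1.54), Nr5a1 23 (1.19), Isl1 44 (0.91), Adcyap1 96 (0.71), Nkx2-1 140 (0.62) and Ghrh 389 (0.43). Tbx3 ranked 4447, with a residual SD of 0.17. The limma intervals of the group difference were wide for the first 2 of these, from -1.20 to 2.11 for Fezf1 and from -1.71 to 0.85 for Nr5a1, and narrow for Tbx3, from -0.29 to 0.13. A rise of 1 log2 unit was inside the 95% interval for Fezf1, Nkx2-1 and Isl1, and a fall of 1 log2 unit for Fezf1, Nr5a1 and Adcyap1, so differences of that size were not excluded for them.

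**Figure D2:**
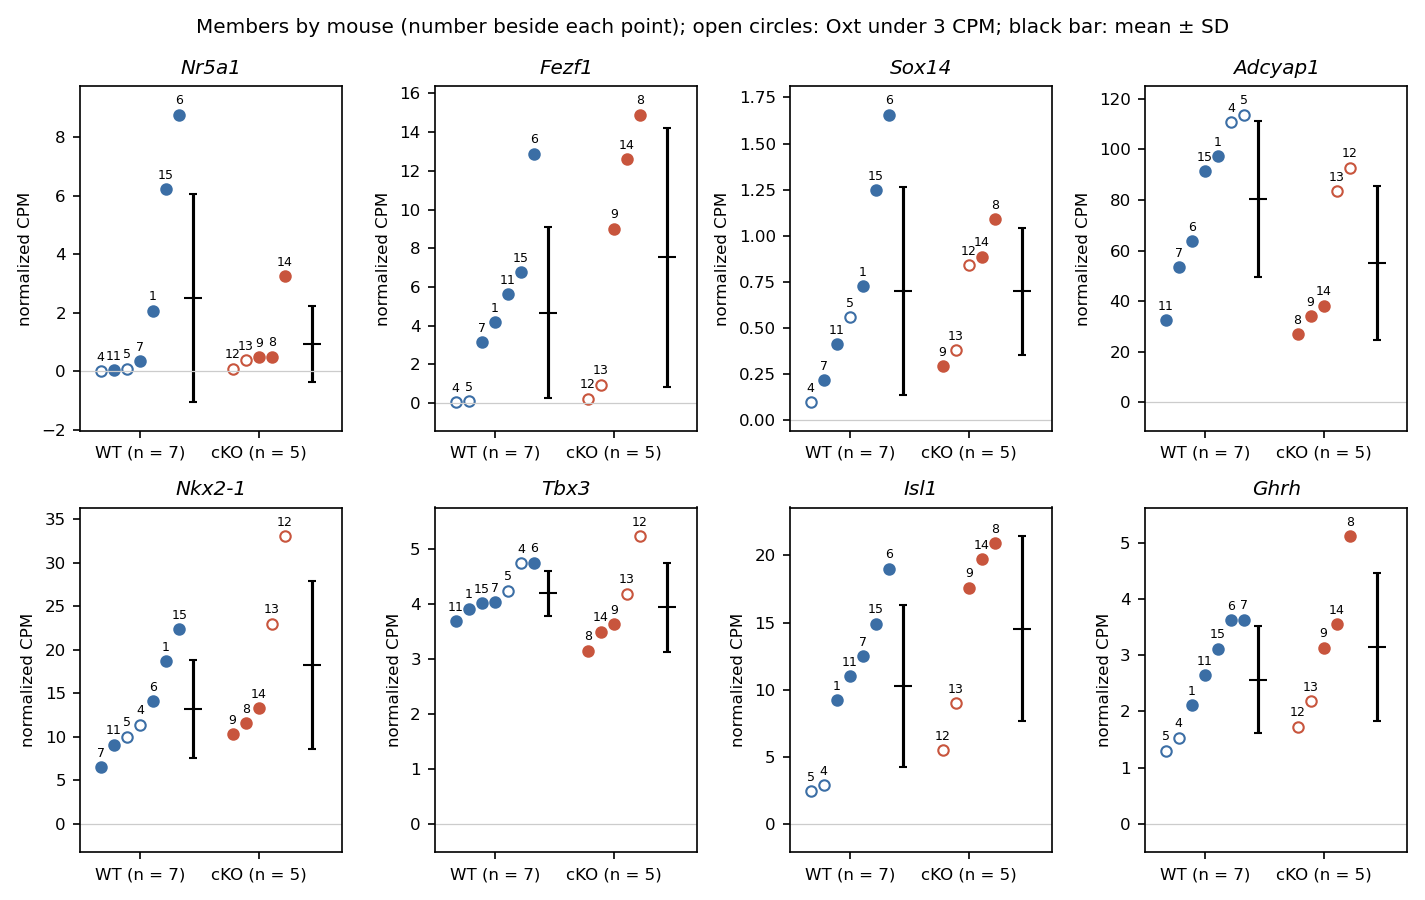
Normalized CPM of each member by mouse, with the mouse number beside each point, WT in blue (n = 7), cKO in red (n = 5), open circles for the 4 libraries with Oxt under 3 CPM, and the black bar giving the mean ± SD. Groups overlap in every panel, and the open circles lie at the bottom for Fezf1, Isl1 and Ghrh and in the upper part of each group for Adcyap1 and Tbx3.

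Per kilobase of annotated exon the members spanned a wide range of levels. The median over the 12 libraries was 19.5 CPM per kb for Adcyap1, 4.36 for Nkx2-1, 4.31 for Ghrh, 2.97 for Isl1 and 2.04 for Fezf1. It was 0.606 for Tbx3, 0.311 for Sox14 and 0.103 for Nr5a1. The ranges over libraries of Nkx2-1, Ghrh, Isl1 and Fezf1 overlapped, so their order is not beyond their spread. The same holds for Tbx3 (0.475 to 0.789), Sox14 (0.0477 to 0.802) and Nr5a1 (0 to 2.07). The range of Adcyap1 began at 7.10, below the highest values of Nkx2-1 (11.6) and Ghrh (7.66). Fezf1 (from 0.0205) and Isl1 (from 0.611) reached into the ranges of Tbx3, Sox14 and Nr5a1, and Ghrh (from 1.95) into that of Nr5a1. Exon lengths came from GENCODE M21, which may not be the annotation the counts were made with.

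Nr5a1 encodes SF-1, the transcription factor that defines the ventromedial nucleus in the adult hypothalamus. In WT it was at 2.08 CPM in mouse 1, 0 in mouse 4, 0.0930 in mouse 5, 8.77 in mouse 6, 0.346 in mouse 7, 0.0413 in mouse 11 and 6.23 in mouse 15. In cKO it was at 0.504 CPM in mouse 8, 0.490 in mouse 9, 0.0933 in mouse 12, 0.380 in mouse 13 and 3.26 in mouse 14. Only WT 1, WT 6, WT 15 and cKO 14 were above 1 CPM, with 143, 196, 140 and 55 reads, and the other 8 libraries held at most 12 reads each. WT 11 had 1 read among 24.0 M, and WT 4 had 0 reads, which allows up to 0.148 CPM. Group means were 2.51 ± 3.56 CPM (SD, n = 7) in WT and 0.944 ± 1.30 CPM (SD, n = 5) in cKO, and the log2 fold change was -0.43 (SE 0.60) with a limma adjusted p of 0.668. The exact permutation test over samples gave p = 0.433. The size of the difference depended on the scale and on single libraries, at -1.50 by edgeR and -1.42 by DESeq2 on recovered reads, -1.41 in the authors' deposited table, -1.21 with a thalamus score as covariate, -0.08 without WT 6 and -0.76 without cKO 14. The limma, edgeR and DESeq2 adjusted p over all alternatives was 0.350 to 0.938.

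Fezf1 encodes a zinc-finger repressor that is a marker of ventromedial neurons from development onward. In WT it was at 4.19 CPM in mouse 1, 0.0493 in mouse 4, 0.0930 in mouse 5, 12.9 in mouse 6, 3.16 in mouse 7, 5.62 in mouse 11 and 6.76 in mouse 15. In cKO it was at 14.9 CPM in mouse 8, 9.02 in mouse 9, 0.233 in mouse 12, 0.950 in mouse 13 and 12.6 in mouse 14. The 4 libraries of low Oxt held 1 to 20 reads of Fezf1 and the other 8 held 73 to 355, with no overlap. Fezf1 and Nr5a1 did not share their high libraries throughout, since WT 11, WT 7, cKO 9 and cKO 8 had 3.16 to 14.9 CPM of Fezf1 with at most 0.504 CPM of Nr5a1. Group means were 4.68 ± 4.43 CPM (SD, n = 7) in WT and 7.54 ± 6.69 CPM (SD, n = 5) in cKO, and the log2 fold change of 0.45 (SE 0.77) had a limma adjusted p of 0.732. It was -0.23 with a cortex and striatum score and -0.21 with a pituitary score as covariate, and 0.07 without cKO 8.

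Sox14, a SoxB2 transcription factor found in ventromedial neurons and in inhibitory neurons of the thalamus and pretectum, was close to the detection limit. WT had 0.727 CPM in mouse 1, 0.0986 in mouse 4, 0.558 in mouse 5, 1.66 in mouse 6, 0.216 in mouse 7, 0.413 in mouse 11 and 1.25 in mouse 15. cKO had 1.09 CPM in mouse 8, 0.294 in mouse 9, 0.840 in mouse 12, 0.380 in mouse 13 and 0.888 in mouse 14. WT 6 and WT 15, both high in Nr5a1, were also the highest for Sox14, while cKO 12 had 0.840 CPM of Sox14 with 0.0933 CPM of Nr5a1. These values rest on 2 to 50 reads per library. The means were 0.702 ± 0.564 CPM (SD, n = 7) and 0.698 ± 0.345 CPM (SD, n = 5), with p = 0.994 in the exact permutation test. In a limma fit of all genes above 0, the alternative that includes it, its log2 fold change was 0.04 with an adjusted p of 0.939.

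Adcyap1 encodes PACAP, a neuropeptide made by ventromedial neurons and by several other groups, mammillary neurons among them. In WT it was at 97.2 CPM in mouse 1, 111 in mouse 4, 114 in mouse 5, 63.7 in mouse 6, 53.5 in mouse 7, 32.4 in mouse 11 and 91.5 in mouse 15. In cKO it was at 26.8 CPM in mouse 8, 34.1 in mouse 9, 92.7 in mouse 12, 83.5 in mouse 13 and 38.1 in mouse 14. Its high libraries were not those of Fezf1, with 83.5 to 114 CPM in the 4 libraries of low Fezf1 and 26.8 to 97.2 CPM in the other 8. WT 4 had 111 CPM of Adcyap1 with no read of Nr5a1, so in that library the peptide's messenger RNA was measured with none of the nucleus-defining gene detected. Group means were 80.4 ± 31.0 CPM (SD, n = 7) and 55.0 ± 30.6 CPM (SD, n = 5), and the log2 fold change was -0.60 (SE 0.36) with a limma adjusted p of 0.272 and an exact permutation p of 0.189.

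Adcyap1 was the member whose group difference changed call with another setting. With a score of 6 mammillary markers as a covariate, an alternative added after the values were seen, its log2 fold change was -0.50 with a limma adjusted p of 0.00462. That fit called 1 of 7 members against 21.3% of all tested genes. The score includes Foxa1, whose r with Adcyap1 was 0.99 over the 12 libraries after subtracting group means. The covariate thus holds a gene that varied closely with Adcyap1, and this call is not an independent check of its group difference. The summed mammillary markers ranged from 8.18 to 125 CPM in WT and from 7.97 to 174 CPM in cKO. Over the 27 alternatives the adjusted p of Adcyap1 ran from 0.00462 to 0.797, and its fold change was below 0 in each, from -1.32 with the thalamus score (limma adjusted p = 0.0809) to -0.24 with the cortex and striatum score.

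Nkx2-1 encodes a homeodomain factor that sets up the ventral hypothalamus and remains in neurons of the arcuate and ventromedial nuclei. WT had 18.7 CPM in mouse 1, 11.4 in mouse 4, 9.998 in mouse 5, 14.1 in mouse 6, 6.49 in mouse 7, 9.09 in mouse 11 and 22.4 in mouse 15. cKO had 11.5 CPM in mouse 8, 10.3 in mouse 9, 33.0 in mouse 12, 23.0 in mouse 13 and 13.3 in mouse 14. Every library therefore held Nkx2-1, and its highest values were in cKO 12 and cKO 13, where Fezf1 was under 1 CPM. The log2 fold change was 0.40 (SE 0.31) with a limma adjusted p of 0.403, and it was -0.14 in the 8 libraries of high Oxt and -0.42 with a thalamus score as covariate. Its nearest relative, Nkx2-4, was at 0.0826 CPM (2 reads) in WT 11 and at 1.47 to 10.3 CPM in the other 11 libraries.

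Tbx3, a T-box factor that maintains the peptide identity of arcuate neurons, was the most even member. It was at 3.91 CPM in WT 1, 4.73 in WT 4, 4.23 in WT 5, 4.74 in WT 6, 4.02 in WT 7, 3.68 in WT 11 and 4.00 in WT 15. It was at 3.15 CPM in cKO 8, 3.63 in cKO 9, 5.22 in cKO 12, 4.18 in cKO 13 and 3.49 in cKO 14. It did not follow Fezf1 or Isl1, since the 4 libraries of low Oxt had 4.18 to 5.22 CPM of Tbx3, inside or above the range of the other 8. The log2 fold change was -0.08 (SE 0.10) with a limma adjusted p of 0.603. Antisense genes overlap exons of Tbx3 (Tbx3os1), Nkx2-1 (Gm26973) and Nr5a1 (Nr5a1os) in GENCODE M21, and without a stated strand setting reads of such pairs cannot be told apart.

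Isl1 encodes a LIM-homeodomain factor of arcuate neurons, among them Pomc neurons, and of cholinergic neurons of the striatum. In WT it was at 9.19 CPM in mouse 1, 2.86 in mouse 4, 2.42 in mouse 5, 19.0 in mouse 6, 12.5 in mouse 7, 10.99 in mouse 11 and 14.9 in mouse 15. In cKO it was at 20.9 CPM in mouse 8, 17.6 in mouse 9, 5.46 in mouse 12, 8.97 in mouse 13 and 19.7 in mouse 14. The 4 libraries of low Oxt had 2.42 to 8.97 CPM, all below the other 8, which had 9.19 to 20.9 CPM. Group means were 10.3 ± 6.07 CPM (SD, n = 7) and 14.5 ± 6.90 CPM (SD, n = 5), and the log2 fold change was 0.56 (SE 0.46) with a limma adjusted p of 0.430. This fold change was 0.16 with a cortex and striatum score and 0.30 with a pituitary score as covariate, and 0.32 without WT 5.

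Ghrh encodes growth hormone-releasing hormone, the arcuate peptide that drives growth hormone release. It was at 2.11 CPM in WT 1, 1.53 in WT 4, 1.30 in WT 5, 3.63 in WT 6, 3.63 in WT 7, 2.64 in WT 11 and 3.11 in WT 15. It was at 5.12 CPM in cKO 8, 3.14 in cKO 9, 1.73 in cKO 12, 2.18 in cKO 13 and 3.55 in cKO 14. As for Isl1, the lowest values were in WT 4, WT 5 and cKO 12, and cKO 13 was just above WT 1. Group means were 2.57 ± 0.953 CPM (SD, n = 7) and 3.14 ± 1.32 CPM (SD, n = 5), and the log2 fold change was 0.21 (SE 0.22) with a limma adjusted p of 0.561. This fold change was 0.0009 with a cortex and striatum score and -0.026 with a pituitary score as covariate, and 0.05 without cKO 8.

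Without the 4 libraries of low Oxt, 5 WT and 3 cKO libraries remained. The residual SD there was 0.58 for Fezf1 and 0.31 for Isl1, below that over 12 libraries, and 1.27 for Nr5a1, above it. limma called 0 of 7 members there against 10.3% of 15364 tested genes, and 3 of 7 had an unadjusted p under 0.05, against 29.4%. Adcyap1 was at 67.7 ± 26.9 CPM (SD, n = 5) in WT and 33.0 ± 5.73 CPM (SD, n = 3) in cKO, with a fold change of -0.93 on the log2 scale and a limma adjusted p of 0.0778. WT 1, kept among these 8 libraries, had their highest Adcyap1, at 97.2 CPM. It also had 102 CPM of Slc6a3, against at most 1.78 CPM in the other WT and 1.57 CPM in the cKO libraries. The Oxt cut thus left Slc6a3 uneven between the groups, and its part in the difference of Adcyap1 was not tested. Isl1 was at 13.3 ± 3.81 CPM in WT and 19.4 ± 1.69 CPM in cKO, a log2 fold change of 0.55 with a limma adjusted p of 0.0829. Fezf1 was at 6.52 ± 3.81 CPM and 12.2 ± 2.96 CPM, a log2 fold change of 0.91 with a limma adjusted p of 0.101. In these libraries Gad1, which encodes an enzyme that makes GABA, was at 231 to 299 CPM in WT and 350 to 432 CPM in cKO. Gad2, which encodes another such enzyme, was at 362 to 439 CPM in WT and 458 to 570 CPM in cKO. Whether this bears on the differences of Fezf1 and Isl1 was not tested. The ranges of WT and cKO did not overlap for 1 of 7 members, Tbx3, with 3.68 to 4.74 CPM in WT and 3.15 to 3.63 CPM in cKO, against 21.6% of tested genes. The exact permutation test for Tbx3 gave p = 0.0357, where the smallest p this design allows is 0.0179, and its limma adjusted p was 0.187. For Adcyap1, Fezf1 and Isl1 the same exact permutation test gave p = 0.0893, 0.0893 and 0.0714.

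**Figure D3:**
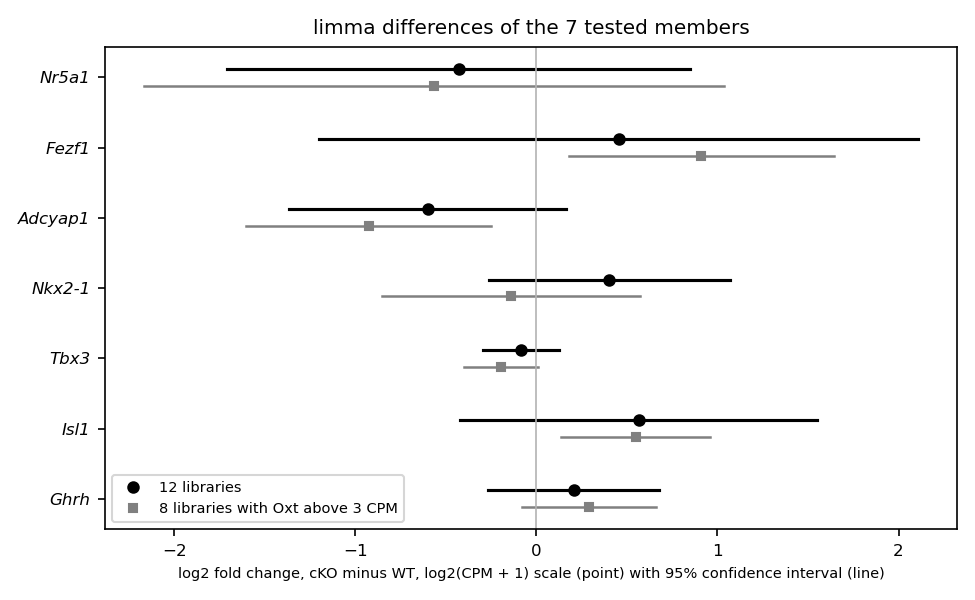
limma log2 fold change (cKO minus WT, log2(CPM + 1) scale, points) with its 95% confidence interval (lines) for the 7 tested members, in all 12 libraries (black circles) and in the 8 libraries with Oxt above 3 CPM (grey squares). The black intervals all include 0, and the grey intervals of Fezf1, Adcyap1 and Isl1 do not, before adjustment over all genes.

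Members were compared in pairs after subtracting each group's mean of log2(CPM + 1). Over all 12 libraries 8 of the 21 pairs passed on r. Among them were Fezf1 and Isl1 (r = 0.96, adjusted permutation p = 0.000735) and Fezf1 and Adcyap1 (r = -0.76, adjusted permutation p = 0.0468). The 4 libraries of low Oxt formed a separate cluster for Fezf1. For Isl1 they were also the lowest, but with no clear gap, at 8.97 CPM in cKO 13 and 9.19 CPM in WT 1. The coefficients that follow are therefore within the other 8 libraries. There, none of the 21 pairs passed after adjustment. Fezf1 and Isl1 had r = 0.81 and rho = 0.81 (exact permutation p = 0.0556 and 0.0472, adjusted over 21 pairs 0.394 and 0.357), and r was 0.95 without the 2 libraries farthest from the median of Fezf1. Isl1 and Ghrh had r = 0.74 and rho = 0.71 (exact permutation p = 0.0306 and 0.0653, adjusted 0.394 and 0.357), and r was 0.36 without the 2 farthest libraries. Nr5a1 and Fezf1, both ventromedial transcription factors, had r = 0.68 and rho = 0.64 (exact permutation p = 0.113 and 0.167, adjusted 0.394 and 0.586). Their r was -0.02 without WT 6 and WT 15, so the relation rested on those libraries. Fezf1 and Adcyap1 had r = -0.01 and rho = -0.14 (exact permutation p = 0.993 and 0.776, adjusted 0.993 and 0.932). Adcyap1 and Nr5a1 had r = 0.67 and rho = 0.60 (exact permutation p = 0.142 and 0.219, adjusted 0.412 and 0.586), and r was 0.80 without WT 6 and WT 15. Adcyap1 and Nkx2-1 had r = 0.76 and rho = 0.81 (exact permutation p = 0.103 and 0.0528, adjusted 0.394 and 0.357), and r was 0.33 without WT 1 and WT 15. Nr5a1 and Nkx2-1 had r = 0.74 and rho = 0.81 (exact permutation p = 0.113 and 0.0681, adjusted 0.394 and 0.357), and r was 0.72 without WT 6 and WT 15.

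**Figure D4:**
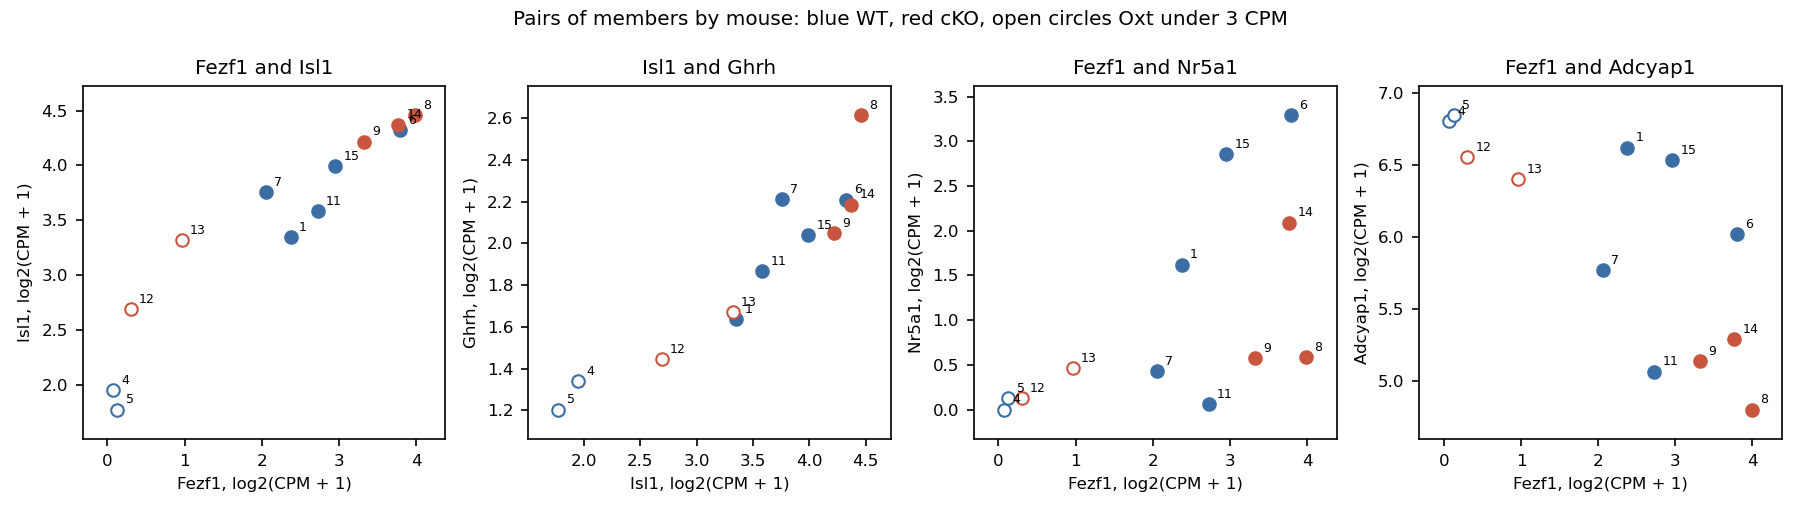
log2(CPM + 1) of 4 pairs of members by mouse (number beside each point), WT in blue, cKO in red, open circles for the 4 libraries with Oxt under 3 CPM. Over the filled points Fezf1 and Isl1 had r = 0.81 after subtracting group means, which did not pass after adjustment over pairs. WT 7, WT 11, cKO 8 and cKO 9 are low for Nr5a1 at Fezf1 levels of 3.16 to 14.9 CPM.

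The promoters of Fezf1, Isl1 and Ghrh, which had their lowest values in WT 4, WT 5 and cKO 12, are printed here to show what lies at their starts. They come from RefSeq on GRCm38.p6, reach from 250 bases before to 50 bases after the start of transcription, and read 5′ to 3′ on the gene's own strand, the minus strand for all 3 genes. They are chr6:23248215-23248514 for Fezf1, chr13:116309639-116309938 for Isl1, and chr2:157346606-157346905 and chr2:157337377-157337676 for the upstream and the downstream start of Ghrh. Capitals mark a match to a searched motif.
Fezf1: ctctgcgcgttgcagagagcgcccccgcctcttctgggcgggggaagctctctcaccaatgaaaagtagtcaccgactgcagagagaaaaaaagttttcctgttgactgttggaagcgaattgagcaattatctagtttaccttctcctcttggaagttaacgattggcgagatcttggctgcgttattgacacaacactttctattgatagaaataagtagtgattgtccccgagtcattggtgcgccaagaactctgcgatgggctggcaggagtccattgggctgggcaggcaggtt
Isl1: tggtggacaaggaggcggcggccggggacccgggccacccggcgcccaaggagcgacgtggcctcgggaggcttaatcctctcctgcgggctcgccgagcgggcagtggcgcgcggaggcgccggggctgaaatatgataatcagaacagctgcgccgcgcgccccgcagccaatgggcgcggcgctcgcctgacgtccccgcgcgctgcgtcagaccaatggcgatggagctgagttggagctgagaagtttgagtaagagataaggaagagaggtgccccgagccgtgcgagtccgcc
Ghrh upstream start: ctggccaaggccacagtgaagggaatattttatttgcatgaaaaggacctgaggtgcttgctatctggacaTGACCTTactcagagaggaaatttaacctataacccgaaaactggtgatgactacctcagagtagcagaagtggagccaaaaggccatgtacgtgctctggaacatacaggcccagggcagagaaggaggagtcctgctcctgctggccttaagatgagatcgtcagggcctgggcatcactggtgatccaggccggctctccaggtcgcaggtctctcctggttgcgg
Ghrh downstream start: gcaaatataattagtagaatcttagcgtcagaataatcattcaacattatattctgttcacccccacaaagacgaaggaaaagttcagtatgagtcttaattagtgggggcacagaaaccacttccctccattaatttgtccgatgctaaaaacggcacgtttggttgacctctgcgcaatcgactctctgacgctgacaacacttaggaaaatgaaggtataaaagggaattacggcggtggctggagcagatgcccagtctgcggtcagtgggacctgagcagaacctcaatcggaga

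The motifs searched on both strands were AAGGTCA (the NR5A1 half-site), CAAGTG (the NKX2-1 core) and AGGTGTGA (a T-box site). Of all 32851 promoters in the table, 4.72% held the first, 13.6% the second and 1.28% the third. The table held promoters of 6 of the 8 members, namely Fezf1, Isl1, Ghrh, Sox14, Nkx2-1 and Adcyap1. The upstream start of Ghrh held AAGGTCA on the opposite strand, printed as TGACCTT, and no other promoter of these 6 genes matched. A match is a description of letters and not a binding site. The Isl1 promoter had 37 CpG dinucleotides, that of Sox14 26, that of Fezf1 13 and that of Nkx2-1 12. The upstream start of Ghrh had 6 and the downstream start 12, and the starts of Adcyap1 had 7 and 10. The median over all promoters was 7.

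The genes of the table most like each member were ranked by r over the 12 libraries after subtracting group means, among the 12188 genes that averaged 5 CPM or more. The r in the 8 libraries of high Oxt is given second. The points are the same libraries for every gene, so these values are a description and carry no test. Nr5a1 was nearest to Blcap (0.95 and 0.97), Gprasp2 (0.95 and 0.94) and Gm29729 (0.94 and 0.96). Fezf1 was nearest to Gad1 (0.98 and 0.80), Dlx6os1 (0.98 and 0.75) and Gad2 (0.97 and 0.74), of which Gad1 and Gad2 encode the enzymes that make GABA. Isl1 was nearest to Vax1 (0.97 and 0.91), Npffr1 (0.97 and 0.70) and Gad1 (0.97 and 0.87).

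Adcyap1 was nearest to Nr4a2 (0.99 and 0.99), Foxa1 (0.99 and 0.97) and Kcng3 (0.98 and 0.97), and Nr4a2 and Foxa1 are transcription factors of midbrain dopamine neurons and, for Foxa1, of the subthalamic area. Nkx2-1 was nearest to Sfta3-ps (0.95 and 0.98), a neighbour of Nkx2-1 in the genome, Gpr83 (0.93 and 0.92) and Hpcal1 (0.93 and 0.90). Tbx3 was nearest to Rab10os (0.92 and 0.85), Pank2 (0.91 and 0.75) and Hip1r (0.90 and 0.84). Ghrh was nearest to Eid2b (0.96 and 0.86), Caly (0.95 and 0.91) and Ddost (0.95 and 0.82).

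Among 16 other genes of the ventromedial nucleus, 14 were tested, 1 rose and 2 fell, with a list median of -0.06, beside 14.1% called and a median of 0.01 over all tested genes. Esr1, the estrogen receptor of the ventrolateral part of the nucleus and of other hypothalamic areas, rose from 9.07 ± 3.29 CPM in WT to 18.9 ± 6.63 CPM in cKO (log2 fold change 0.99, SE 0.23, limma adjusted p = 0.0143). Its values were 5.67 to 15.2 CPM in WT and 12.9 to 30.0 CPM in cKO, with WT 11 inside the cKO range. Tac1, which encodes substance P, fell from 27.7 ± 4.89 to 17.7 ± 4.00 CPM (log2 fold change -0.63, SE 0.14, limma adjusted p = 0.0146). Nptx2, a synaptic pentraxin, fell from 38.1 ± 8.26 to 25.8 ± 5.24 CPM (log2 fold change -0.54, SE 0.15, limma adjusted p = 0.0344). In the 8 libraries of high Oxt, Esr1 (limma adjusted p = 0.0221), Tac1 (0.0182) and Nptx2 (0.0322) passed as well, and Bdnf, a neurotrophin gene, newly passed (-0.84, limma adjusted p = 0.0288). In all 12 libraries, with a thalamus score as covariate Tac1 did (-0.86, limma adjusted p = 0.0255). With that score Esr1 (1.13, adjusted p = 0.0597) and Nptx2 (-0.18, adjusted p = 0.527) did not pass, the fold change of Esr1 being as large as without it and that of Nptx2 smaller. With a pituitary score as covariate, which left 25 genes called in all, none of the 3 passed, with log2 fold changes of 0.94 for Esr1 (limma adjusted p = 0.176), -0.53 for Tac1 (0.204) and -0.70 for Nptx2 (0.135). Nptx2 passed in 4 of the 12 fits that left out 1 library, those without WT 4, WT 5, WT 15 or cKO 14. Slc17a6, the glutamate transporter of these neurons (log2 fold change -0.06, adjusted p = 0.806), and Rbfox1, a splicing regulator (-0.11, adjusted p = 0.271), did not pass limma's threshold.

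Of 20 other arcuate genes, 18 were tested and 1 rose, with a list median of 0.15. Gsx1, a homeobox factor needed for Ghrh neurons in development, was at 0.854 ± 0.461 CPM in WT and 1.57 ± 0.312 CPM in cKO (log2 fold change 0.50, SE 0.16, limma adjusted p = 0.0475), on 10 to 67 reads. It passed in 3 of the 12 fits that left out 1 library, those without WT 6, WT 15 or cKO 13, and it did not pass in the 8 libraries of high Oxt, where the log2 fold change was 0.46 (limma adjusted p = 0.128). With the thalamus score as covariate its log2 fold change was smaller, at 0.19 (limma adjusted p = 0.549). Sst, which encodes somatostatin (log2 fold change -0.53, limma adjusted p = 0.0602), and Th, the rate-limiting enzyme of dopamine synthesis (0.12, adjusted p = 0.855), did not pass. Th was highest in the libraries of high Slc6a3, at 62.0 to 98.3 CPM in WT 1, WT 4, WT 5, cKO 12 and cKO 13. In the others it was at 18.1 to 48.6 CPM. Slc6a3 is itself on this arcuate list, so the list does not read the arcuate nucleus alone. By edgeR and with the cortex and striatum score the list again had 1 call, which was Sst and not Gsx1. Sst passed by edgeR (adjusted p = 0.0489) and DESeq2 (0.0112) and in the 8 libraries of high Oxt (log2 fold change -0.58, limma adjusted p = 0.0239). In those 8 libraries Otp, a homeobox factor of Agrp and of paraventricular neurons, also passed (0.90, limma adjusted p = 0.0163). Agrp, the hunger peptide of the arcuate nucleus and chosen after its values were seen, was at 0.522 to 1.24 CPM in the 12 libraries. Pomc, its satiety counterpart and also chosen after its values were seen, was at 3.02 to 22.9 CPM in 11 libraries and at 153 CPM in cKO 14, the library with the highest Gh (10.2 CPM) and Prl (1.72 CPM) of the pituitary.

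Of 16 genes of PACAP and growth hormone-releasing hormone signalling, 14 were tested and 1 fell, beside 14.1% of all tested genes called. An unadjusted limma p under 0.05 was found for 7 of the 14, against 31.1% of all tested genes. The list median was -0.14. Vipr2, a receptor for PACAP and VIP, fell from 8.35 ± 2.22 to 4.64 ± 1.77 CPM (log2 fold change -0.75, SE 0.19, limma adjusted p = 0.0239). Its log2 fold change was -0.81 in the 8 libraries of high Oxt (limma adjusted p = 0.0832) and -0.94 with the pituitary score (0.124), and it was smaller, at -0.30, with the thalamus score as covariate (0.393). The calls of this list in the 8 libraries were Gh (log2 fold change 1.95, limma adjusted p = 0.0123) and Sst, which the arcuate list also holds. Prl, like Gh a gene of the pituitary, was at 0 to 0.260 CPM in WT and 0.686 to 1.72 CPM in cKO in those 8 libraries. Adcyap1r1, the PACAP-selective receptor (0.00, adjusted p = 0.985), and Gnas, the stimulatory G protein subunit (0.01, adjusted p = 0.894), did not pass limma's threshold, and the interval for Adcyap1r1 was -0.12 to 0.12. Of 6 closest relatives of the members, 4 were tested and 0 passed in limma, edgeR and DESeq2 (0 with an unadjusted p under 0.05 in limma), with a list median of 0.23. Sox21 had a log2 fold change of 0.10 (limma adjusted p = 0.347) and Nkx2-4 of 0.35 (0.642). In the 8 libraries of high Oxt, Fezf2, the forebrain relative of Fezf1, passed with a log2 fold change of 0.89 (limma adjusted p = 0.00784).

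Markers of neighbouring regions and of cell types are given beside these counts. Of 10 thalamus markers 5 fell, namely Prkcd (-1.44), Rora (-0.75), Rgs16 (-0.89), Plekhg1 (-0.61) and Ntng1 (-0.53), and their list summed to 796 to 1563 CPM in WT and 498 to 890 CPM in cKO. In the 8 libraries of high Oxt, Prkcd (-1.35, limma adjusted p = 0.0313) passed, and Rora (-0.67, adjusted p = 0.0642), Rgs16 (-0.62, 0.0724), Plekhg1 (-0.43, 0.232) and Ntng1 (-0.43, 0.178) did not. Plekhg1 failed in 9 and Ntng1 in 4 of the 12 fits that left out 1 library. Of the paraventricular and supraoptic markers 1 of 6 rose, Sim1 (0.56), and of the neuron markers 2 of 6 rose, Elavl4 (0.17) and Stmn2 (0.20). In the 8 libraries of high Oxt, Sim1 (0.67, limma adjusted p = 0.00576), Elavl4 (0.19, 0.0477) and Stmn2 (0.19, 0.0456) passed. Sim1 and Elavl4 each failed in 2 and Stmn2 in 1 of the 12 fits that left out 1 library. With the thalamus score Sim1 (0.57, limma adjusted p = 0.108) did not pass. With the pituitary score Sim1 (0.52, limma adjusted p = 0.213), Elavl4 (0.11, 0.328) and Stmn2 (0.15, 0.280) did not. Over all 12 libraries no gene passed limma's threshold among the cortex and striatum, mammillary, suprachiasmatic, lateral hypothalamus, tanycyte, pituitary, astrocyte, oligodendrocyte, microglia, endothelium and midbrain dopamine markers. The midbrain dopamine markers, a list chosen after the values were seen, summed to 52.0 to 402 CPM in WT and 41.4 to 283 CPM in cKO. The pituitary markers summed to 4.21 to 6.90 CPM in WT and 5.04 to 16.2 CPM in cKO, with 5 of the 9 under 1 CPM in every library. The part of region content in the differences of Esr1, Nptx2 and Vipr2 was not tested beyond the covariate fits given.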

How the data were processed

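Hypothalamic RNA of 12 male mice had been sequenced, and the groups were taken from the titles and genotype labels. FastQC 0.11.9, STAR 2.7.9a, SAMtools, Subread and featureCounts were used, per the submitters' processing notes. Genome build, annotation and strand setting are not given in the sources used here. The authors deposited normalized CPM for 32494 genes, and a table with a log2 fold change, log2 mean CPM, p-value and FDR per gene. All 12 library columns were matched by name, and 0 columns were left unused. The deposited CPM values were whole multiples of 1 step per library for 100% of values (tolerance 0.01 reads), so whole reads were recovered. Depth was 17.1 to 24.0 M reads, and 68.7 M in WT 1. Floors of 3 reads cover counting error only.

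limma 3.58.1 (R 4.3.3; lmFit, eBayes with trend) was fitted on log2(CPM + 1) for the 15359 genes that averaged 1 CPM or more, with Benjamini-Hochberg adjustment and a threshold of 0.05. The log2(CPM + 1) scale understates changes of low genes. For single genes an exact permutation test, two-sided, went through the 792 possible splits (smallest p = 0.00126). On simulated counts limma recovered 183 of 197 genes changed by 1 log2 unit among 15334 tested, with 11 false calls (5.67%). The changed genes were drawn at random from the tested genes, and each gene was simulated independently of the others. Fezf1, Nr5a1, Isl1, Adcyap1, Nkx2-1 and Ghrh varied more between mice than most genes, so this recovery does not describe them. Pairs were tested two-sided, exactly within the 8 libraries and with 100000 resamples over 12. Alternatives were a pseudocount of 0.1, other CPM minima, median centring, quantile normalization, robust eBayes, edgeR 4.0.16, DESeq2 1.42.0, marker scores (mean log2(CPM + 1) of a list) as covariates, and leaving out each library. Added after seeing the data were the 8 libraries with Oxt above 3 CPM and the mammillary and midbrain dopamine scores. The members and lists were chosen with earlier results of these data known.

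All members were named with each library's value. Of the other lists, genes past the threshold were named, with up to 2 others of the highest mean CPM, and for each tested member the 3 genes of highest r. Oxt, Slc6a3, En1, Agrp, Pomc, Gh, Prl, Avp, Six6, Otp, Bdnf, Fezf2 and Mbp were named after their values were seen, as were Gad1 and Gad2 in the 8 libraries. The labels give no batch and do not say how the mice were housed or dissected, so p-values measure the spread between these mice.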

Additional observations from a re-analysis of the deposited data

Results flagged for a closer look

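Each value here lay apart from the rest of its group by Dixon's test at the 95% level, which chance passes in about 1 of 20 groups. Of 146 groups tested, 7 passed, where 7.3 are expected by chance. Among the members, Nr5a1 passed in cKO 14, at 3.26 CPM with the next cKO library at 0.504 CPM. Without cKO 14, the limma log2 fold change of Nr5a1 was -0.76. Among genes of the lists, Rbfox1 was at 187 CPM in cKO 8 (nearest 217), Zfhx3, a suprachiasmatic marker, at 119 CPM in WT 11 (nearest 89.2) and Flt1, an endothelial marker, at 101 CPM in cKO 12 (nearest 94.6). Among marker scores, the mean log2(CPM + 1) of the PACAP and GHRH list was 4.21 in cKO 14 (nearest 4.03). The mammillary score was 0.688 in WT 11 (nearest 2.85), and the suprachiasmatic score was 3.22 in cKO 8 (nearest 2.77). WT 11 is also the library with 1 read of Nr5a1.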

How the results depend on the processing

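No paired analysis was possible because the groups share no mouse number. Over the 186 alternative values of the 7 tested members, 179 kept direction and side of the threshold, 6 changed sign without passing it and 1 newly passed it. Sox14, untested under the minimum of 1 CPM, changed sign in 5 of 14 values, which ran from -0.06 to 0.20. The changes of sign of tested members were Fezf1 at -0.23 with the cortex and striatum score and -0.21 with the pituitary score, Nkx2-1 at -0.42 with the thalamus score and -0.14 in the 8 libraries, and Tbx3 at 0.069 and Ghrh at -0.026 with the pituitary score. Adcyap1 (-0.50) passed with the mammillary score, which includes its close correlate Foxa1, and this made 1 member called. Leaving out each library called 0 members throughout, with ranges of 0.07 to 0.996 for Fezf1, -0.83 to -0.39 for Adcyap1, -0.76 to -0.08 for Nr5a1, 0.32 to 0.84 for Isl1, 0.05 to 0.34 for Ghrh, 0.16 to 0.56 for Nkx2-1 and -0.17 to -0.02 for Tbx3. Over all genes, 2172 were called by limma, 2097 by edgeR, 2747 by DESeq2, 600 with the thalamus, 25 with the pituitary and 3266 with the mammillary score, and 1158 (without WT 1) to 2302 leaving out 1 library. Median centring gave 1377 higher and 1054 lower, against 1004 and 1168.

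The ventromedial list (3 called) gave 0 with the pituitary score, 2 with the thalamus score (Tac1 and Hpcal1) or all genes above 0, 4 with the mammillary or midbrain dopamine score or the 8 libraries, and 2 to 3 leaving out 1 library. The arcuate list (1 called) gave 0 with all genes above 0, with a minimum of 5 CPM and with the thalamus or pituitary score, 2 with DESeq2, the tanycyte score or the 8 libraries, 3 with the mammillary or midbrain dopamine score, and 0 to 2 leaving out 1 library. The PACAP and GHRH list (1 called) gave 0 with the pituitary score, 2 with edgeR, the thalamus or tanycyte score or the 8 libraries, 3 with DESeq2, 4 with the cortex and striatum, mammillary or midbrain dopamine score, and 1 to 2 leaving out 1 library. The relatives (0 called) gave 1 in the 8 libraries. Pairs of members past the threshold numbered 8 over 12 libraries, 2 in WT only and 0 in the 8. The cause of these changes was not tested. A minimum of 5 CPM leaves no value for Nr5a1, Tbx3 and Ghrh, and r without the 2 farthest libraries carries no test. Depth limits Sox14 and, in 8 libraries, Nr5a1, which rest on at most 50 and 12 reads.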
